A study of Mus musculus with 8 samples.

Results

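Collagens are the main structural proteins of the tumour stroma, and the genes described here are those whose symbol in the deposited table reads as a collagen chain (Col, a type number, the letter a and a chain number). The pattern took 37 of 18138 gene symbols and 61 of 25697 probes. Col4a3bp, with 3 probes, also carries the pattern but encodes a ceramide transporter, so it is given apart and the collagens are 36 genes with 58 probes. They were sorted by type into 9 fibrillar genes (types 1, 2, 3, 5 and 11), 8 basement membrane genes (types 4, 15 and 18), 2 type 6 genes and 17 other genes. Membership and class used the names alone and no measured value, though the family was chosen with earlier results of these data known. Total RNA of ileal tumours was hybridised to Illumina BeadChips, 1 array for each of 4 APCmin/+/VP16LXRa tumours (replicates 5 to 8) and 4 APCmin/+/VP16 control tumours (replicates 1 to 4). All mice carried the APCmin/+ allele, a truncating mutation of the tumour suppressor Apc that gives intestinal tumours, on a mixed C57BL/6J-FVBN background, and were 8 months old. VP16LXRa is the nuclear receptor LXRalpha, which senses oxysterols, fused to the VP16 activation domain so that it is active without ligand. The control mice carried VP16. The labels name neither the promoter that drives the transgene nor the sex, the chip, or whether each array is a separate animal, so the p-values speak for the spread among these samples only, which may be technical.

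Collagens are made as chains that join in threes into a triple helix. Fibrillar collagens, secreted mostly by fibroblasts, pack into the fibres of the connective tissue. Type 4 forms the sheet-like network of the basement membrane under epithelium and around vessels and smooth muscle, with types 15 and 18 as its proteoglycan neighbours, and type 6 forms beaded filaments close to cells. In intestinal tumours the stroma that makes them includes fibroblasts, smooth muscle, pericytes and endothelium.

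Each value below is a normalised probe intensity on the log2 scale, and each difference is VP16LXRa minus control on that scale, with n = 4 arrays in each group. A probe was tested when its signal stood above the negative control beads (detection p under 0.05) on 4 or more arrays, which 13426 probes did. Between 49.0% and 54.7% of probes were detected per array. The array of VP16LXRa replicate 5 stood apart from the rest, with a median correlation of 0.869 with the other arrays against 0.910 to 0.942 for the remaining 7. Its probes for one gene also disagreed more, with a 90th percentile of the spread of 1.55, against 0.445 to 0.603. Nr1h3, the gene of LXRalpha, averaged 10.10 ± 0.32 in VP16LXRa tumours and 9.81 ± 0.73 in control tumours (SD, n = 4 each), a difference of 0.28 (adjusted p = 0.998 in limma's test). A second Nr1h3 probe differed by 0.49. The labels do not say whether either probe reads the transgene.

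Collagen transcripts averaged higher in VP16LXRa tumours for most of the detected genes, but tumours of one group varied widely and no difference passed the test. Of the 58 collagen probes, 22 were detected on no array, 16 on 1 to 3 arrays, and 20 probes of 18 genes were tested. Among these 20, 13 had the higher mean in VP16LXRa tumours and 7 the lower, with a median difference of 0.34. Over all tested probes 50.2% had the higher mean in VP16LXRa tumours and the median difference was 0.0018. Of the 15 collagen probes detected on all 8 arrays, 11 were higher and 4 lower with a median of 0.44, against 52.9% higher and a median of 0.019 over all 9810 such probes. In limma's test with Benjamini-Hochberg adjustment over all tested probes, 0 of the 20 collagen probes and 0% of all probes passed an adjusted p of 0.05, and the smallest adjusted p among the collagens was 0.998. At an unadjusted p under 0.05, 0 collagen probes were higher, against 1.72% of all probes, and 1, Col9a1, was lower, against 0.812%. That probe met the filter through the control tumours alone, so its call is no support for a difference. A different number of collagen-producing cells and a different amount of RNA per cell cannot be told apart in RNA of whole tumours. The median 95% confidence interval of a collagen probe reached 1.04 to either side of its difference, before any adjustment over probes.

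The count and the medians turned on single arrays. Without control replicate 3, 9 of the 20 probes were higher and the median of the collagens was -0.076, while without control replicate 4, 17 were higher and the median was 0.55. Without VP16LXRa replicate 5 the median was 0.14 and 12 were higher. Under the 5 other background corrections, normalisations and processed values tried on all 8 arrays the median of the 20 probes lay between 0.12 and 0.35.

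**Figure D1:**
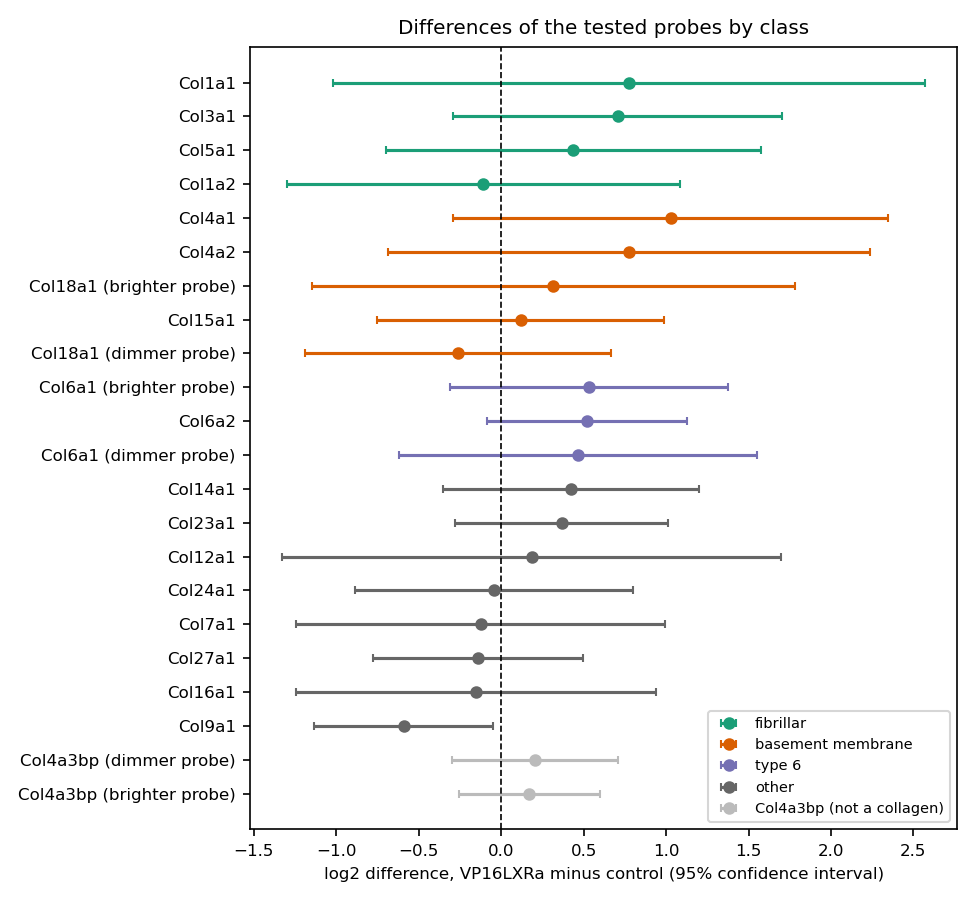
Log2 difference (VP16LXRa minus control, with its 95% confidence interval from limma) of the 20 tested collagen probes, coloured by class, and of the 2 tested Col4a3bp probes. The interval of every collagen probe crosses 0 except that of Col9a1, which was at background in VP16LXRa tumours, and all 3 type 6 probes lie between 0.46 and 0.53.

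The fibrillar class was represented by Col1a1 and Col1a2, which encode the chains of type 1 collagen, the main fibre of connective tissue, by Col3a1, the single chain of type 3, and by Col5a1, a chain of type 5, which starts fibrils. These 4 probes were detected on all 8 arrays. The other 9 fibrillar probes, among them all those of Col2a1, Col5a2, Col5a3, Col11a1 and Col11a2 and a second probe of Col3a1, were not tested, since 2 were detected on no array and 7 on 1 to 3. The median difference of the 4 tested probes was 0.57, with 3 higher and 1 lower. It was 0.18 without VP16LXRa replicate 5, 0.19 without control replicate 3 and 0.98 without control replicate 4.

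Col1a1 measured 10.24, 7.56, 8.00 and 7.48 in VP16LXRa replicates 5, 6, 7 and 8, against 7.09, 6.69, 6.74 and 9.67 in control replicates 1, 2, 3 and 4. One tumour in each group, VP16LXRa 5 and control 4, stood far above the remaining tumours of its group, and the other 3 VP16LXRa values lay above the other 3 control values. The difference was 0.77 ± 0.80 (SE; unadjusted p = 0.356, adjusted p = 0.998 in limma's test). It was 0.13 without VP16LXRa replicate 5 and 1.48 without control replicate 4.

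Its partner chain did not follow that pattern. Col1a2 measured 7.40, 7.09, 7.13 and 6.22 in VP16LXRa tumours, against 7.33, 7.32, 5.48 and 8.14 in control tumours. The control values enclosed all 4 VP16LXRa values: control 3 was lowest and control 4 highest. The difference was -0.11 ± 0.53 (SE), and it ranged from -0.64 without control replicate 3 to 0.25 without control replicate 4.

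Col3a1 measured 8.63, 7.94, 8.43 and 7.77 in VP16LXRa tumours, against 7.63, 7.20, 6.45 and 8.66 in control tumours. All 4 VP16LXRa values lay above 3 of the control values and below that of control 4. The difference was 0.71 ± 0.44 (SE; unadjusted p = 0.144, adjusted p = 0.998 in limma's test), from 0.36 without control replicate 3 to 1.10 without control replicate 4. For Col5a1 the values were 9.60, 8.84, 9.08 and 8.32 in VP16LXRa tumours, against 8.83, 8.18, 7.30 and 9.77 in control tumours. Only control 4 lay above all VP16LXRa tumours and controls 2 and 3 below them all, and the difference of 0.44 ± 0.50 (SE) was 0.030 without control replicate 3.

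**Figure D2:**
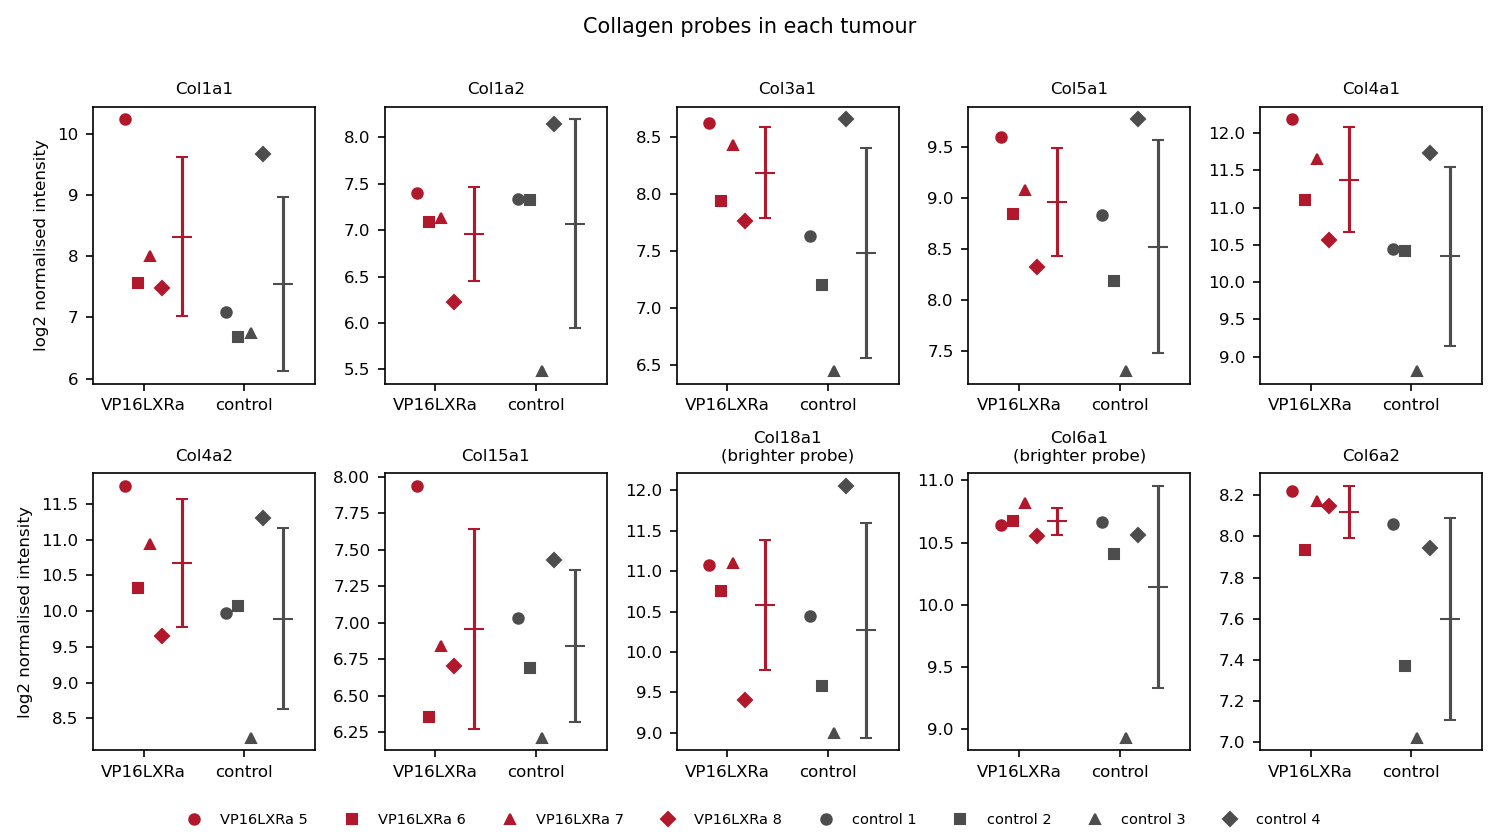
Log2 normalised intensity (vertical axis, scaled for each panel) of 10 collagen probes in each tumour, with the mean and SD of the 4 VP16LXRa tumours (red, left) and the 4 control tumours (grey, right). Control 3 is lowest in 9 of the 10 panels, and its type 6 values lie below those of the other 7 tumours.

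Basement membrane collagens held the greatest difference of any collagen, in Col4a1. Col4a1 and Col4a2 encode the chains of the most widespread type 4 collagen, 2 copies of the first to 1 of the second in each helix, while Col15a1 and Col18a1 encode collagens whose ends are released as fragments that restrain vessel growth (endostatin, from Col18a1). Of the class, 5 probes of these 4 genes were tested, 4 higher and 1 lower, with a median difference of 0.32. It was -0.093 without control replicate 3, 0.91 without control replicate 4 and 0.15 without VP16LXRa replicate 5. The type 4 chains Col4a3, Col4a4, Col4a5 and Col4a6, more restricted in their tissues, were detected on at most 1 array.

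Col4a1 measured 12.18, 11.11, 11.65 and 10.56 in VP16LXRa tumours, against 10.44, 10.42, 8.81 and 11.73 in control tumours. All 4 VP16LXRa values lay above those of control 1, 2 and 3, and control 4 lay above 3 of them. The difference was 1.03 ± 0.59 (SE; unadjusted p = 0.112, adjusted p = 0.998 in limma's test), which is 2.04-fold, with a 95% confidence interval from -0.29 to 2.35. It stayed above 0 when any single array was left out, from 0.52 without control replicate 3 to 1.49 without control replicate 4.

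Col4a2 had nearly the same order of tumours. It measured 11.75, 10.33, 10.94 and 9.65 in VP16LXRa tumours, against 9.98, 10.07, 8.23 and 11.30 in control tumours. VP16LXRa 8 lay below control 1 and 2, so the groups overlapped more than for Col4a1, and the difference was 0.77 ± 0.65 (SE; unadjusted p = 0.262 in limma's test). It was 0.22 without control replicate 3 and 1.24 without control replicate 4.

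The genes of these chains lie head to head. Their promoter windows from RefSeq (build GRCm38.p6, 250 bases before to 50 after the annotated start site) are shown because the pair moved together across the tumours and because the windows overlap. Whether the shared bases play a part in this was not tested. Capitals mark the 78 bases that both windows hold, read from opposite strands, and the start sites are 21 bases apart. The window of Col4a1 is chr8:11312777-11313076 on the minus strand and that of Col4a2 is chr8:11312555-11312854 on the plus strand.
Col4a1: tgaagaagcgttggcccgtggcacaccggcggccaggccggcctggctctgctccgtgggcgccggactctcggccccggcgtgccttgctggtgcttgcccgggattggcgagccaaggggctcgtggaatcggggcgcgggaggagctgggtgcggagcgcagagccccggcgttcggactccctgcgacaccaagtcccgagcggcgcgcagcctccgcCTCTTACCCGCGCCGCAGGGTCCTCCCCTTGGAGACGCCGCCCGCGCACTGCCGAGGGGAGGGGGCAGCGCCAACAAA
Col4a2: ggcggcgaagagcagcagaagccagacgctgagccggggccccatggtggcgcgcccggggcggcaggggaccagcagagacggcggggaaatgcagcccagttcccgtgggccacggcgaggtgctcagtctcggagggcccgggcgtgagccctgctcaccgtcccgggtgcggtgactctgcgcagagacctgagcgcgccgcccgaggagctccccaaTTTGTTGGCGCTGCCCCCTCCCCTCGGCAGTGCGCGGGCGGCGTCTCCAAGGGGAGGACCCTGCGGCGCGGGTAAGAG

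Across the 8 tumours, Col4a1 and Col4a2 had a Pearson correlation of 0.983 (exact permutation p = 0.000248, adjusted over 3 chain pairs 0.000744) and a Spearman correlation of 0.905 (exact permutation p = 0.00456, adjusted 0.0137). Without control 3 and VP16LXRa 5, the 2 tumours farthest from the median of Col4a1, the Pearson correlation was 0.934. Such an order of tumours was not particular to this pair. Col3a1 and Col5a1, on other chromosomes, were also lowest in control 3 and highest in control 4 and VP16LXRa 5. Correlations with collagens outside the 3 chain pairs were not computed. The ratio of Col4a1 to Col4a2 differed between the groups by 0.25 on the log2 scale, and a two-sided exact permutation test gave p = 0.0857 (adjusted over 3 pairs 0.257), where 4 against 4 arrays can reach no less than 0.0286.

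Col15a1 measured 7.94, 6.35, 6.84 and 6.70 in VP16LXRa tumours, against 7.03, 6.69, 6.21 and 7.43 in control tumours. The groups overlapped over most of their range, and the difference of 0.12 ± 0.39 (SE) was -0.21 without VP16LXRa replicate 5 and -0.093 without control replicate 3. Col18a1 was read by 2 tested probes that gave opposite signs. Its brighter probe measured 11.08, 10.76, 11.10 and 9.40 in VP16LXRa tumours, against 10.44, 9.58, 8.99 and 12.06 in control tumours, a difference of 0.32 ± 0.65 (SE). Its dimmer probe measured 6.63, 6.37, 6.43 and 5.05 in VP16LXRa tumours, against 6.09, 6.22, 5.98 and 7.24 in control tumours, a difference of -0.26 ± 0.41 (SE). Both probes were highest in control 4, while the lowest VP16LXRa value of both was that of VP16LXRa 8. The remaining Col18a1 probe was detected on no array.

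Type 6 collagen, the filament that links cells to their matrix, was the class with the closest agreement among the VP16LXRa tumours. All 3 tested probes had the higher mean in VP16LXRa tumours, by 0.46 to 0.53, with a median of 0.52, and the median was 0.13 without control replicate 3. The median SD of the 3 probes was 0.127 in VP16LXRa tumours and 0.814 in control tumours, where control 3 lay apart.

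The brighter Col6a1 probe measured 10.64, 10.67, 10.82 and 10.56 in VP16LXRa tumours, against 10.67, 10.41, 8.93 and 10.56 in control tumours. Control 3 lay far below every other tumour, and the remaining 7 lay between 10.41 and 10.82. The difference was 0.53 ± 0.37 (SE; unadjusted p = 0.189 in limma's test) and 0.13 without control replicate 3. The dimmer Col6a1 probe measured 10.09, 9.91, 10.33 and 9.56 in VP16LXRa tumours, against 10.26, 9.74, 7.94 and 10.09 in control tumours. Its difference of 0.46 ± 0.48 (SE) was -0.058 without control replicate 3, and the remaining Col6a1 probe was detected on no array.

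Col6a2 measured 8.22, 7.94, 8.17 and 8.15 in VP16LXRa tumours, against 8.06, 7.37, 7.02 and 7.94 in control tumours. Of the 4 VP16LXRa values 3 lay above every control value, and that of VP16LXRa 6 lay among them. The difference was 0.52 ± 0.27 (SE; unadjusted p = 0.0842, adjusted p = 0.998 in limma's test), with a 95% confidence interval from -0.086 to 1.13, and 0.33 without control replicate 3. No probe carried the symbol Col6a3, so it was not analysed here.

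The remaining collagens include anchoring (Col7a1), fibril-associated (Col9a1, Col12a1, Col14a1, Col16a1), membrane-spanning (Col23a1) and further fibril-like chains (Col24a1, Col27a1). Of their 28 probes, 13 were detected on no array, 7 on 1 to 3 arrays and 8 were tested, 3 higher and 5 lower, with a median of -0.085, which was 0.25 without control replicate 4. No collagen had groups that did not overlap in the higher direction, against 1.01% of all tested probes, and 1 did in the lower, against 0.722%. This was Col9a1, a chain of the type 9 collagen best known from cartilage, which measured 4.81, 4.88, 4.99 and 4.83 in VP16LXRa tumours, against 5.18, 5.66, 5.95 and 5.10 in control tumours. The highest VP16LXRa value lay just below the lowest control value.

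The Col9a1 probe was detected on 0 of the 4 VP16LXRa arrays but on all 4 control arrays, so its value in VP16LXRa tumours is only a bound, and a probe that meets the filter through one group is bound to differ between them. Each VP16LXRa array was set to the higher of its own value and the lowest detected signal. With the offset of 16 the probe was then 1.30-fold lower in VP16LXRa tumours, a value that holds for that offset only. The measured means were 4.88 in VP16LXRa tumours and 5.47 in control tumours (adjusted p = 0.998 in limma's test). The signal was close to background in both groups, and the other 2 Col9a1 probes were detected on no array. The measured difference of -0.59 shrank to -0.32 with an offset of 50 and to -0.17 with no background correction.

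Col14a1, which binds to the surface of fibrils, measured 6.29, 5.23, 4.77 and 5.80 in VP16LXRa tumours, against 5.23, 4.62, 5.33 and 5.23 in control tumours, a difference of 0.42 ± 0.34 (SE). Its groups overlapped, with 2 VP16LXRa tumours above all controls. Col23a1 measured 5.62, 5.08, 5.05 and 5.55 in VP16LXRa tumours, against 4.85, 5.65, 4.54 and 4.81 in control tumours, a difference of 0.37 ± 0.29 (SE). Detected on 3 VP16LXRa arrays and 1 control array, it met the filter mainly through the VP16LXRa tumours, so its difference is no support. Col12a1 was highest in control 4 and next highest in VP16LXRa 5, like Col1a1 in reverse order, with 8.15, 7.34, 6.41 and 6.85 in VP16LXRa tumours, against 6.33, 6.53, 6.03 and 9.12 in control tumours. Its difference was 0.19 ± 0.67 (SE), and it was -0.13 without VP16LXRa replicate 5, -0.14 without control replicate 3 and 0.89 without control replicate 4. The differences of Col16a1, Col7a1, Col27a1 and Col24a1 were -0.15, -0.13, -0.14 and -0.045, and each changed sign with 1 array left out. Without control replicate 4 they were 0.25 for Col16a1 and 0.25 for Col7a1, without control replicate 1 0.017 for Col27a1, and without control replicate 2 0.33 for Col24a1.

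The 38 collagen probes that were not tested had values between 4.29 and 6.01 over all arrays. The tested Col4a3bp probes, of the ceramide transporter, differed by 0.20 and 0.17, with SDs of at most 0.315 in either group.

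Collagens varied more between tumours than most probes did, and the same few tumours lay at the ends. Among the 15 collagen probes detected on all 8 arrays the median SD was 0.684 in VP16LXRa tumours and 1.05 in control tumours. Over all 9810 probes detected on all 8 arrays it was 0.365 in VP16LXRa tumours and 0.386 in control tumours. Control 3 was the lowest of the 8 tumours for 12 of the 15 collagen probes (80%), against 14.5% of all 9810 probes. Control 4 was the highest for 8 of the 15 (53.3%), against 16.8% of all, and VP16LXRa 5 for 5 (33.3%), against 26% of all.

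Class scores, the mean deviation of a class's tested probes from their 8-array means, placed the tumours in a like order for fibrillar and basement membrane collagens. The fibrillar score was 1.08, -0.024, 0.28 and -0.43 in VP16LXRa tumours, against -0.16, -0.53, -1.39 and 1.18 in control tumours. The basement membrane score was 0.97, 0.039, 0.45 and -0.67 in VP16LXRa tumours, against -0.15, -0.35, -1.30 and 1.01 in control tumours. In both, control 4 and VP16LXRa 5 were the 2 highest and control 3 the lowest. The type 6 score differed from them at the upper end, since control 4 at 0.20 and VP16LXRa 5 at 0.32 lay among the other tumours and only control 3, at -1.37, lay apart.

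Markers of the stromal cell types moved with the collagens in control 3, but not these alone. Control 3 also had the lowest leukocyte score, -0.65, and the lowest glia and neuron score, -1.05 (2 of 7 markers tested), while its epithelial score was 0.37. The smooth muscle and pericyte score (13 of 15 markers tested) lay between 0.040 and 0.95 in VP16LXRa tumours, against -2.27 to 0.36 in control tumours, where control 3 was lowest, and the summed signal of the list ranged from 33433 to 58003 in VP16LXRa tumours and from 3982 to 48632 in control tumours. The fibroblast score (15 of 15 tested) lay between -0.15 and 0.58 in VP16LXRa tumours, against -0.91 to 0.36 in control tumours, with sums from 8983 to 17565 in VP16LXRa tumours and 3028 to 17547 in control tumours. The endothelial score (13 of 14 tested) lay between -0.40 and 0.47 in VP16LXRa tumours, against -1.23 to 0.29 in control tumours, with sums from 2747 to 5586 in VP16LXRa tumours and 1418 to 5432 in control tumours. Control 3 was lowest in all 3. Their defining markers Myh11, Acta2, Dcn, Pdgfra and Pecam1 were detected on all 8 arrays, and Cdh5 on 3 VP16LXRa arrays and 1 control array. Myh11, the smooth muscle myosin, measured 6.74 in control 3 and 9.85 to 11.90 in the other 7 tumours.

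Control 4, the highest tumour for fibrillar collagens, did not have a high smooth muscle score, at -0.31, while its fibroblast score was 0.36. The smooth muscle list as a whole had the higher mean in VP16LXRa tumours for 13 of 13 tested genes with a median of 0.89, the fibroblast list for 9 of 15 with 0.20 and the endothelial list for 11 of 13 with 0.31. The fibroblast and endothelial values, and in part those of smooth muscle, rested on control 3. Without it the smooth muscle list had 12 of 13 higher with a median of 0.46, the fibroblast list 6 of 15 with -0.035 and the endothelial list 6 of 13 with -0.073. The epithelial list (12 of 13 tested) had 1 of 12 higher with a median of -0.22 and scores from -0.20 to -0.017 in VP16LXRa tumours, against -0.20 to 0.40 in control tumours. Its defining marker Vil1 was detected on all 8 arrays. The leukocyte list (11 of 12 tested) had 3 of 11 higher with a median of -0.31 and scores from -0.50 to 0.25 in VP16LXRa tumours, against -0.65 to 1.69 in control tumours. The score of 1.69 was that of control 2, and without it 5 of 11 were higher with a median of -0.0028. Its defining marker Ptprc was detected on 1 VP16LXRa array and 2 control arrays. No gene of these lists passed the adjusted test. At an unadjusted p under 0.05 in limma's test, 2 of the 13 endothelial genes were higher in VP16LXRa tumours, against 1.72% of all tested probes. These were Cdh5 by 0.82 and Flt1 by 1.06, and 0 genes of the other cell type lists reached that level. Cdh5, detected on 3 VP16LXRa arrays and 1 control array, met the filter mainly through the VP16LXRa tumours, so its call is no support for a difference. The part of cell make-up in the collagen differences was not tested.

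**Figure D3:**
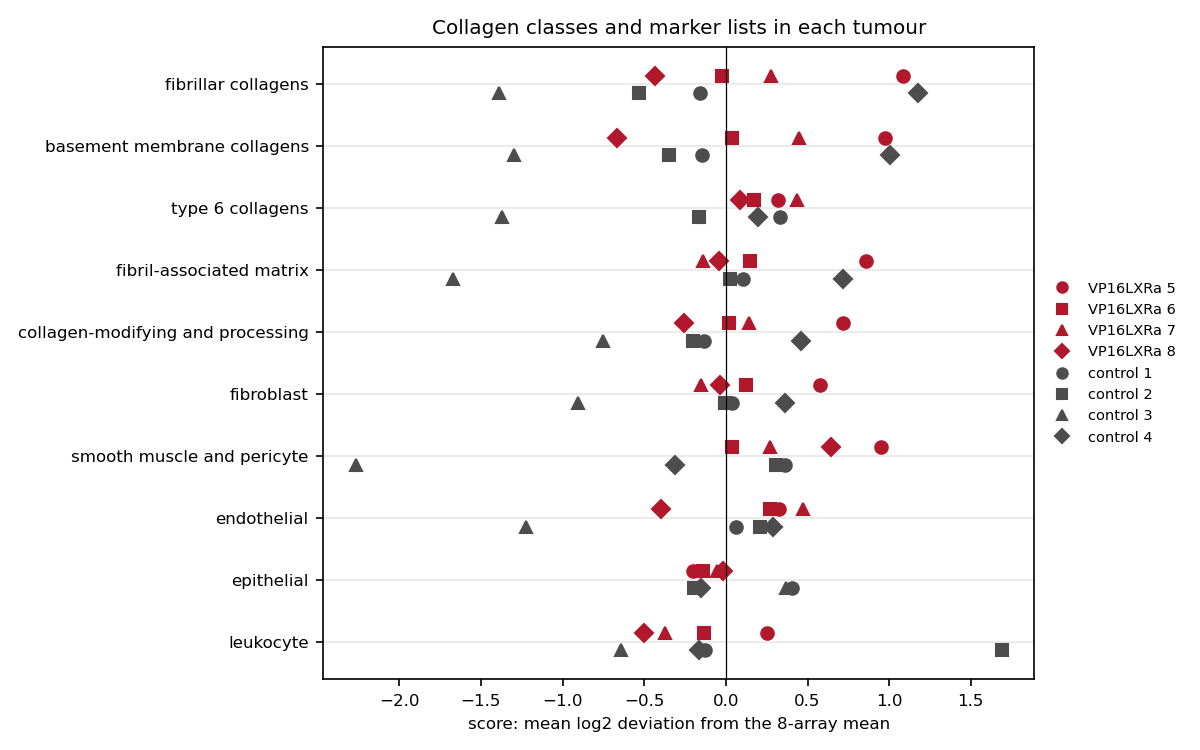
Score of each tumour (mean log2 deviation from the 8-array mean over a list's tested probes or genes) for collagen classes, matrix lists and cell type markers, with VP16LXRa tumours in red above control tumours in grey. Control 3 is lowest for all collagen classes shown and for the fibroblast, smooth muscle, endothelial and leukocyte lists.

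Chains that share a helix were compared across the 8 tumours. Col1a1 and Col1a2, the genes of the type 1 chains, had a Pearson correlation of 0.577 (exact permutation p = 0.117, adjusted over 3 pairs 0.117) and a Spearman correlation of 0.524 (exact permutation p = 0.197, adjusted 0.197). Without VP16LXRa 5 and control 4, the tumours farthest from the median of Col1a1, the Pearson correlation was 0.257. The log2 ratio of Col1a1 to Col1a2, centred on its 8-array mean, was 1.92, -0.45, -0.045 and 0.34 in VP16LXRa tumours, against -1.17, -1.55, 0.35 and 0.61 in control tumours. VP16LXRa 5 lay far above the rest and the groups overlapped. The difference was 0.88 (exact permutation p = 0.286, adjusted 0.429), and 0.39 to 1.23 when single arrays were left out.

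The type 6 chains Col6a1 and Col6a2 had a Pearson correlation of 0.858 (exact permutation p = 0.00548, adjusted 0.00822) and a Spearman correlation of 0.571 (exact permutation p = 0.151, adjusted 0.197). Without control 3 and VP16LXRa 7 the Pearson correlation was 0.787. Their ratio differed between the groups by 0.011 (exact permutation p = 0.943). Each pair shares its 8 arrays, so array quality enters both chains. Within groups there were 4 arrays, too few for a correlation.

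**Figure D4:**
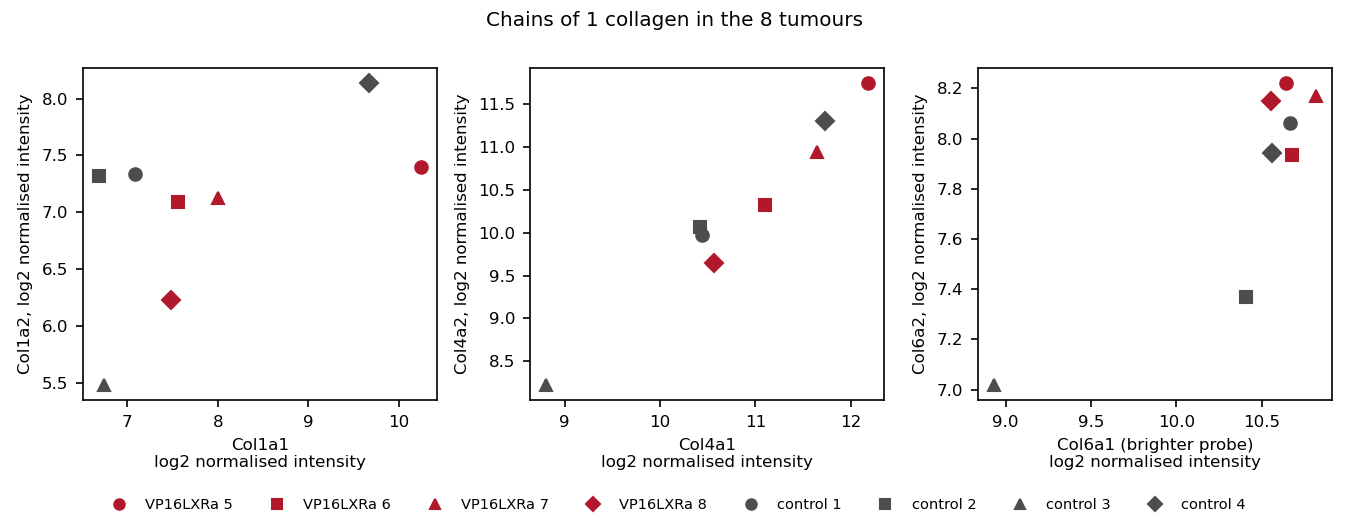
Log2 normalised intensity of chain partners of types 1, 4 and 6 in the 8 tumours, one point per tumour (VP16LXRa red, control grey). The points of Col4a1 and Col4a2 lie close to a line (Pearson 0.983), those of Col1a1 and Col1a2 scatter (0.577), and control 3 stands alone at the low end of the type 6 pair.

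For Col1a2 the promoter window (chr6:4505368-4505667, plus strand, RefSeq GRCm38.p6) is shown for its CCAAT boxes, the element bound by the CCAAT-binding factor that acts on type 1 collagen promoters. Capitals mark CCAAT on either strand, with first bases at -109 on the same strand and at 0, the start site, on the opposite strand.
Col1a2: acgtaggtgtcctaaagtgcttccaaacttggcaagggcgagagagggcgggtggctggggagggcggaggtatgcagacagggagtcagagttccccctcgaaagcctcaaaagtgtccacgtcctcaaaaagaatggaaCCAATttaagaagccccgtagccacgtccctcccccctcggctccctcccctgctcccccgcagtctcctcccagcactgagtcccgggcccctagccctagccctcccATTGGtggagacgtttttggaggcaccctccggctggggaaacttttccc

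Of the 36 collagen genes 29 had windows in the RefSeq table, 32 windows in all, each of 300 bases. CCAAT on either strand was in 12 of the 32 (37.5%), against 37.4% of all 32851 windows. The GC box GGGCGG was in 19 (59.4%), against 35.7%, and the TATA box TATAAA in 5 (15.6%), against 13.6%. The DR4 element that LXR binds, taken as AGGTCA repeated after 4 bases, was in 0 of the 32 and in 0.0152% of all windows. Matches were counted for each motif on both strands, whether or not another motif overlapped them, and a missing match says only that these letters are not in the window.

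The enzymes and chaperones that fold and modify collagen chains held 3 of the 21 tested genes at an unadjusted p under 0.05, all higher in VP16LXRa tumours (1.72% of all tested probes), and none passed the adjusted test. In all, 16 were higher and 5 lower, with a median of 0.17, which was 0.011 without VP16LXRa replicate 5. Plod2, the lysyl hydroxylase that prepares chain ends for cross-links, measured 7.39, 6.08, 5.78 and 5.57 in VP16LXRa tumours, against 5.01, 4.76, 4.91 and 5.53 in control tumours. Its groups did not overlap, by a narrow margin, and 1.01% of all tested probes did not overlap in the same direction. Plod2 was detected on 4 VP16LXRa arrays and 1 control array, so that it met the filter mainly through the VP16LXRa tumours. Its call, counted among the 3, and its lack of overlap are therefore no support for a difference. The difference was 1.15 ± 0.40 (SE; unadjusted p = 0.0174, adjusted p = 0.998 in limma's test), and 0.75 without VP16LXRa replicate 5.

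P4ha2, a catalytic subunit of the prolyl hydroxylase that stabilises the helix, measured 8.30, 6.87, 8.24 and 6.22 in VP16LXRa tumours, against 6.25, 5.81, 5.76 and 6.83 in control tumours, with a difference of 1.24 ± 0.49 (SE; unadjusted p = 0.0322 in limma's test). Serpinh1, the collagen chaperone of the endoplasmic reticulum, measured 8.01, 7.08, 7.24 and 6.67 in VP16LXRa tumours, against 6.35, 6.33, 5.38 and 7.10 in control tumours, with a difference of 0.96 ± 0.40 (SE; unadjusted p = 0.0407 in limma's test). In both genes 1 or more VP16LXRa tumours lay among the controls. The cross-linking oxidase Lox differed by -0.10 and its relative Loxl1 by 0.33. Bmp1, which trims the end of procollagens, differed by -0.079. All 3 changed sign with single arrays left out, between -0.50 and 0.34 for Lox, -0.32 and 0.69 for Loxl1 and -0.42 and 0.34 for Bmp1.

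Among basement membrane partners, 8 of 11 tested genes were higher and 3 lower, with a median of 0.64, and 0.33 without control replicate 3. At an unadjusted p under 0.05 in limma's test 2 of the 11 were higher, against 1.72% of all tested probes, and none passed the adjusted test. Lamb1-1, a laminin beta chain, measured 6.41, 5.73, 6.10 and 5.99 in VP16LXRa tumours, against 5.16, 5.22, 4.87 and 5.69 in control tumours. Its groups did not overlap, with VP16LXRa 6 just above control 4, and 1.01% of all tested probes did not overlap in the same direction. The difference was 0.82 ± 0.25 (SE; unadjusted p = 0.00927, adjusted p = 0.998 in limma's test). Lama1, a laminin alpha chain, measured 9.46, 7.59, 9.02 and 6.34 in VP16LXRa tumours, against 6.41, 5.36, 5.82 and 7.91 in control tumours, a difference of 1.73 ± 0.75 (SE; unadjusted p = 0.0449 in limma's test). Like Col4a1, Lama1 was highest in VP16LXRa 5 and 7 and, among controls, in control 4. Lamc1 differed by 0.66 and the laminin linkers Nid1 and Nid2 by 0.31 and 0.70, while Hspg2, the heparan sulphate proteoglycan perlecan, differed by 0.059. Without control replicate 3, Nid1 was at -0.057 and Hspg2 at -0.25.

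Genes of fibril-associated matrix were higher in 17 of 18 tested, with a median of 0.33 and none at an unadjusted p under 0.05 in limma's test. Without control replicate 3 the median was -0.071. Of these, Dcn, Lum, Dpt, Fbln1 and Mfap5 also stand in the fibroblast list. Decorin, Dcn, which coats fibrils, differed by 0.60 and Sparc, which binds collagen on its way out of the cell, by 0.69. Other probes gave 0.17 for Dcn and, with the opposite sign, -0.45 for Sparc. Without control replicate 3 the difference was -0.072 for Dcn and 0.12 for Sparc. Fbln1 differed by 0.67, with 0.14 and 0.81 at its other probes.

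Collagen receptors were higher in 5 of 7 tested with a median of 0.31, and 0.12 without VP16LXRa replicate 5. The collagen-binding integrin subunits Itga11 and Itga1 differed by 0.58 and 0.38, with 0.31 for Itga11 without control replicate 3, and Mrc2, a receptor that takes up collagen for breakdown, by -0.48. Mrc2 was detected on 1 VP16LXRa array and 3 control arrays, so that it met the filter mainly through the control tumours and its difference is no support. In the TGF-beta pathway, a main inducer of fibrillar collagens, 10 of 16 tested genes were higher with a median of 0.11, and 0.0071 without VP16LXRa replicate 5. The ligand Tgfb1 itself differed by -0.58, Tgfb2 by 0.47 and the target Ctgf by 0.71, and the latent TGF-beta binding proteins Ltbp4 and Ltbp1 by 0.93 and 0.99. Without control replicate 3 these were -0.73 for Tgfb1, 0.24 for Tgfb2, 0.0036 for Ctgf, 0.57 for Ltbp4 and 0.57 for Ltbp1. Other probes gave 0.79 for Ltbp4 and 0.25 for Ltbp1. No receptor or TGF-beta gene reached an unadjusted p under 0.05 in limma's test.

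**Figure D5:**
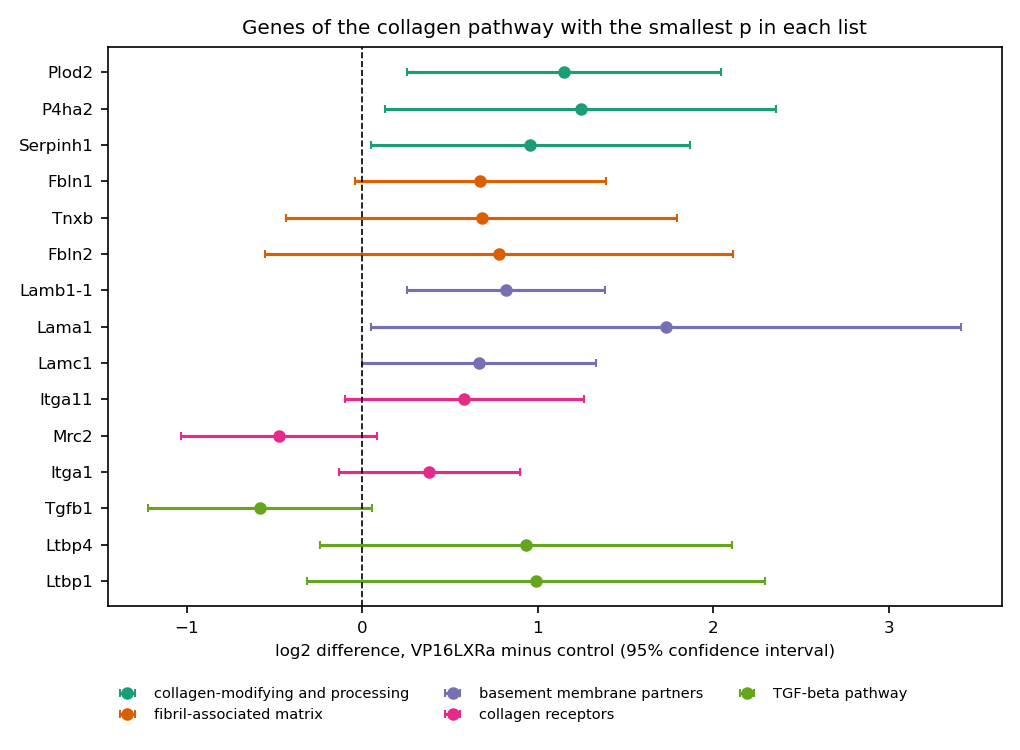
Log2 difference (VP16LXRa minus control, with its 95% confidence interval from limma) of the 3 genes with the smallest p in each of 5 lists related to collagen. The intervals of Plod2, P4ha2, Serpinh1, Lamb1-1 and Lama1 lie above 0 without adjustment over all probes, and the other 10 cross 0. Plod2 and Mrc2 met the filter mainly through the group in which they were higher.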

How the data were processed

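Total RNA of 8 ileal tumours was labelled as biotinylated cRNA and scanned on Illumina BeadChips, with GenomeStudio named in the submitters' processing notes. The deposited scanner table gives each probe an average bead signal, an intensity on a linear scale with no normalization visible, and a detection p-value, per the file headers. The authors' deposited processed table holds intensity values of the same arrays, background-subtracted and normalized as far as its values show, with 5897 to 5985 of them below 0 per array. It was used as an alternative, with a floor of 16.

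The signal was background-corrected by normexp (offset 16), with the background's mean and spread estimated from the detection p-values, quantile-normalized and put on the log2 scale in limma (version 3.58.1, R 4.3.3, statmod 1.5.0). Probes with detection p under 0.05 on at least 4 of 8 arrays were tested with lmFit and eBayes, two-sided, Benjamini-Hochberg adjusted over 13426 probes, with a threshold of 0.05. The fit was tested on simulated data. In the lists a gene is its tested probe with the highest mean. Class counts use every tested probe. Chain pairs were compared by exact permutation tests. Cell type scores are mean log2 deviations from the 8-array mean. Promoters came from RefSeq (GRCm38.p6), and 36 symbols matched it. Alternatives covered the background correction, normalization, filter, array weights, variance prior, choice of probe and leaving out each array.

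Collagens named with values in every array were the tested probes of types 1, 3, 4, 6, 15 and 18, the 3 with the smallest p in each class, and any with an unadjusted p under 0.05 or groups that did not overlap. Col12a1 was added after its values were seen, as were the pathway genes named beyond the 3 smallest p of their list. The members and lists were chosen with earlier results of these data known. The number of arrays limits the precision of every value.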

Additional observations from a re-analysis of the deposited data

Results flagged for a closer look

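In 5 of 62 sets of 4 tumours one tumour lay far from the others of its group, by its gap as a share of the group's range. Chance gives about 1 in 20, or 3.1 of 62. The dimmer Col18a1 probe measured 5.05 in VP16LXRa 8, against 6.37 to 6.63 in the other VP16LXRa tumours. Col1a1 measured 9.67 in control 4, against 6.69 to 7.09 in the other control tumours. Col14a1 measured 4.62 in control 2, against 5.23 to 5.33 in the other controls. The brighter Col6a1 probe measured 8.93 in control 3, against 10.41 to 10.67 in the other controls. The endothelial score was -1.23 in control 3, against 0.060 to 0.29 in the other controls.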

How the results depend on the processing

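In limma's test 0 collagen probes passed the adjusted threshold under all 18 alternatives. The number at an unadjusted p under 0.05, which was 1, was 0 with no background correction, with an offset of 50, with detection on all 8 arrays and with detection p under 0.01, was 3 of 58 probes (Col9a1, Col17a1 and Col25a1) with no filter on dim probes, and was 0 to 4 when single arrays were left out. The 4 without control replicate 4 were Col1a1, Col3a1, Col4a1 and Col9a1. Over all 13426 tested probes the number at that level also rose without control replicate 4, to 791 from 340 with all arrays. With no filter on dim probes it was 808 of 25697. Of the 58 collagen probes 32 were higher with no filter, where the median of the fibrillar class was -0.024. Leaving out single arrays put the median of the other collagens between -0.25 and 0.25. The median of the basement membrane partners was 0.22 with no background correction, 0.11 with no filter and 0.18 with detection on all 8 arrays. Col15a1 turned to -0.20 with array weights, where VP16LXRa 5 had a weight of 0.331. With single arrays left out, signs turned within -0.21 to 0.32 for Col15a1, -0.11 to 0.91 for the brighter and -0.43 to 0.093 for the dimmer Col18a1 probe, -0.64 to 0.25 for Col1a2 and -0.058 to 0.71 for the dimmer Col6a1 probe. Signs also turned for Col7a1, Col12a1, Col16a1, Col24a1 and Col27a1. The marker lists with single arrays left out were added after seeing the data. The cause was not tested beyond the fewer arrays or the changed set of probes. The other 239 values of counts and medians and 255 of single probes were labelled unchanged. For single probes this meant the same sign and call, for medians a move smaller than the spread between tumours, and for counts a limited ratio. The label does not mean that values were stable. It took in the 9 higher probes without control replicate 3, against 13, and their median of -0.076, against 0.34. No paired analysis was possible because the groups share no replicate number. A fit with the chip as a block was planned and not run, because the files name none. Dim collagens, Col9a1 among them, are limited by signal over background.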
